A study of Trichoderma reesei with 6 samples.

Results

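Among the transcripts of the filamentous fungus Trichoderma reesei that changed little between carbon sources, the 100 with the brightest array signal were taken as a set, out of 9126 array features (1.1%). A feature was kept when its highest and lowest carbon source means, each over 2 arrays, lay less than 0.5 apart on the log2 scale, which is under 1.41-fold. This left 3012 features (33%), and the members are the 100 of these with the highest mean over all 6 arrays. The members were therefore chosen by the measured signals themselves, so that their high signal and narrow range are a description and no finding. Signals are log2 values throughout, and a difference of 1 is a doubling. The arrays came from mycelia of strain QM9414, an early cellulase-producing mutant, grown in shake flasks with lactose (28 h), glucose (24 h) or glycerol (24 h) at 10 g/l each. The study's methods give 24 h for all 3 carbon sources. The lactose cultures are the condition in which this strain forms cellulases, and glucose and glycerol serve as the references. Each carbon source has 2 single-colour arrays of 60-mer probes. The labels describe 2 flasks per carbon source but also mixed replicates of mycelium, and p-values measure only the spread between these arrays, which could be technical.

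Transcripts that a growing fungus holds at a high and even level are commonly those of the translation machinery, of chromatin, of central carbon metabolism and of the small GTPases that steer vesicle traffic and hyphal tip growth. Ribosomal proteins, together with ribosomal RNA, build the ribosome, and elongation factors deliver aminoacyl-tRNA to it or move it along the messenger RNA. Genes of this kind are used as references in quantitative PCR and as sources of constitutive promoters. An array measures each transcript as a share of the RNA labelled, so that an even signal is an even share, and a change in the amount of RNA per cell cannot be seen. The signal also depends on the probes, so the order by brightness is an order of signals and not of transcript amounts.

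Signals of cellulase genes fitted the labels of the arrays. The cellobiohydrolase gene cel7a gave 14.23 and 14.22 on lactose, against 6.12 and 6.45 on glucose and 7.64 and 7.78 on glycerol, and cel6a gave 12.07 and 11.71 on lactose, against 3.64 and 3.96 on glucose and 3.94 and 3.64 on glycerol. The cellulase regulator gene xyr1 gave 12.88 and 12.63 on lactose, against 8.02 and 7.86 on glucose and 9.31 and 9.46 on glycerol. The array medians were alike, at 10.80 to 10.85, and the whole signal scale reached from 2.70 to 15.90.

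The members' means over 6 arrays ran from 14.07 to 15.72 with a median of 14.32, so the brightest and the dimmest member differed 3.14-fold in signal. They made up 8 of the 10, 37 of the 50 and 75 of the 100 brightest features. In all, 150 features were at least as bright as the dimmest member, and 50 of these had a range of 0.5 or more. The range of the 3 means within the set had a median of 0.27, which is 1.21-fold, against 0.77 over all features. It was under 0.1 in 16 members, under 0.2 in 33 and under 0.3 in 57. Over the 6 single arrays the range was wider, with a median of 0.39, and 72 members stayed under 0.5 on that measure. The other 28 members were steady in their means and not in every single array.

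**Figure D1:**
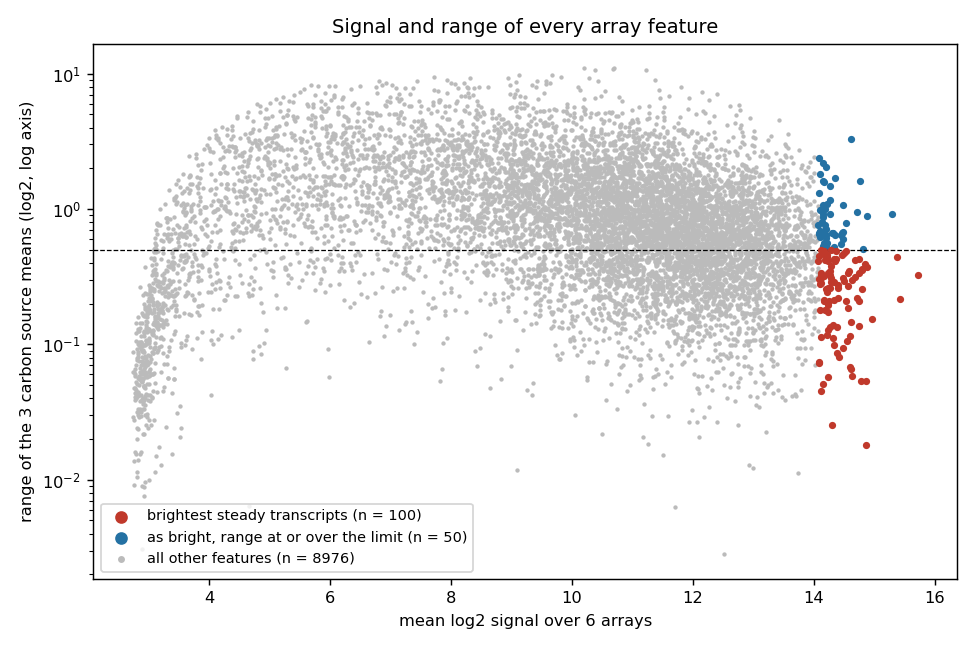
Range of the 3 carbon source means (log2 units, log axis) against the mean log2 signal over 6 arrays, 1 point per array feature. The 100 members lie below the dashed limit at 0.5 and right of a mean of 14.07, and 50 features of the same brightness lie above the limit.

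The share of steady features was not even along the signal scale. With all features split by signal into 10 groups of equal size, 60.57% of the dimmest group had a range under 0.5 and 12.16% of the next, and from there the share was larger in each group up to 52.79% in the brightest. Among the 150 features as bright as the members it was 66.67%. The members thus come from the bright end, where narrow ranges were common.

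The 3 brightest members, which the reference annotation leaves without a gene symbol, stood clear of the rest in signal. Trire2:70840 gave 15.76 and 15.80 on lactose, 15.56 and 15.50 on glucose, and 15.90 and 15.81 on glycerol. Trire2:65290 gave 15.35 and 15.36 on lactose, 15.56 and 15.58 on glucose, and 15.31 and 15.39 on glycerol. Trire2:53947 gave 15.46 and 15.34 on lactose, 15.25 and 15.02 on glucose, and 15.62 and 15.54 on glycerol. Although all 3 met the range limit, the glucose arrays stood apart from the other 4 in each of them, above in Trire2:65290 and below in the others. Trire2:61595 followed with 14.90 and 14.89 on lactose, 15.04 and 15.05 on glucose, and 14.96 and 14.90 on glycerol. Trire2:54198 spanned its carbon source means by 0.26 and was brightest on glycerol.

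Of the 100 members, 33 carry a gene symbol in the RefSeq annotation of strain QM6a, against 235 of all 9126 features (2.58%) and 7 of the 50 equally bright features over the range limit (14%). The 33 are the members whose roles can be described. The other 67 had a protein number only.

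**Figure D2:**
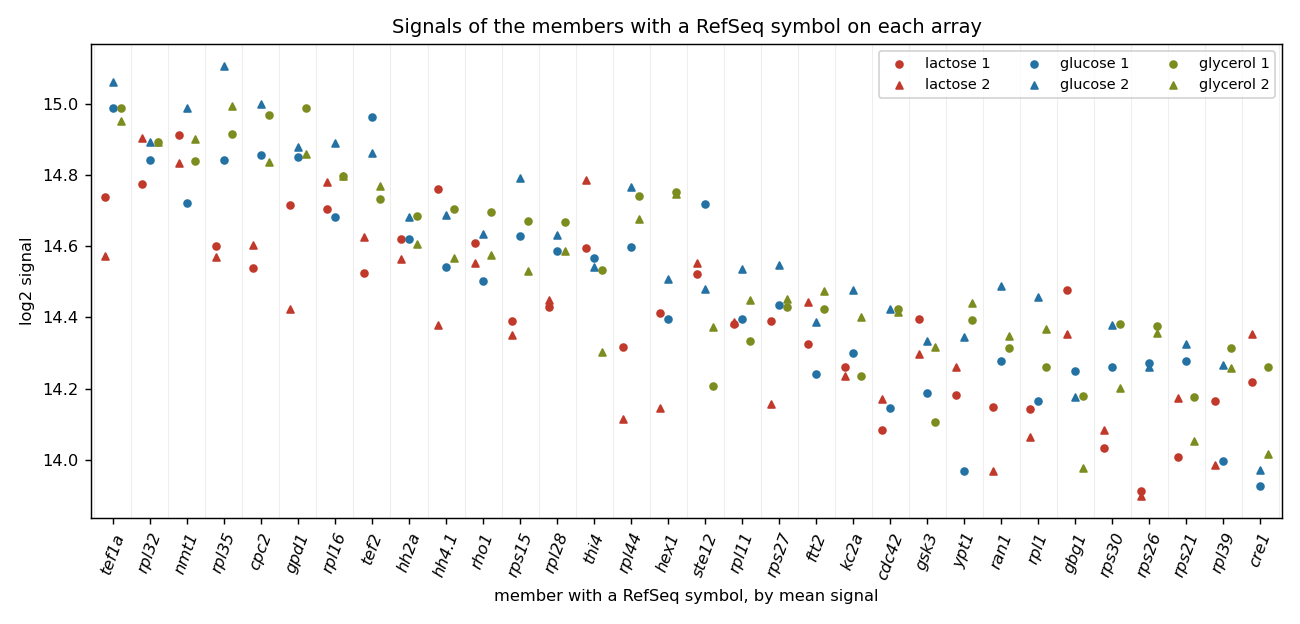
Log2 signal of 32 members with a RefSeq symbol on each of the 6 arrays, ordered by mean signal, with lactose left, glucose in the middle and glycerol right within each gene, and circles and triangles for replicates 1 and 2. Both lactose points of tef1a, rpl35, cpc2, tef2, rps15, rpl44 and rps26 lie under the 4 other points. So do those of gpd1, rpl28, rps27, rpl1, rps30 and ran1, while those of thi4 and gbg1 lie above them.

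Genes of translation were the largest group among the named members. The list of translation factors held 3 genes, 2 of them members. The gene tef1a, for elongation factor 1-alpha, which brings aminoacyl-tRNA to the ribosome, was the fifth brightest member and gave 14.74 and 14.57 on lactose, 14.99 and 15.06 on glucose, and 14.99 and 14.95 on glycerol. The gene tef2, another translation elongation factor, gave 14.53 and 14.63 on lactose, 14.96 and 14.86 on glucose, and 14.73 and 14.77 on glycerol. In both genes the lactose arrays did not overlap with the others, and the ranges of the means were 0.37 and 0.34. The list's remaining gene, the release factor gene erf1, which acts in termination, was dimmer at a mean of 12.82 and ranged over 1.11. A WD-repeat protein gene, cpc2, named after the cross-pathway control of amino acid synthesis in Neurospora, gave 14.54 and 14.60 on lactose, 14.86 and 15.00 on glucose, and 14.97 and 14.84 on glycerol, again with both lactose arrays below the other 4.

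Cytosolic ribosomal protein genes supplied 14 members, 8 of the large and 6 of the small subunit, out of 42 such genes on the array. Their means ran from 14.16 to 14.87, and the ranges of their carbon source means from 0.053 to 0.49 with a median of 0.21. The large subunit genes rpl32 and rpl16 were nearly level. Rpl32 gave 14.77 and 14.90 on lactose, 14.84 and 14.89 on glucose, and 14.89 on both glycerol arrays. Rpl16 gave 14.70 and 14.78 on lactose, 14.68 and 14.89 on glucose, and 14.80 on both glycerol arrays. In rpl32 the lactose arrays spanned those of the other carbon sources. In rpl16 the glucose arrays spanned the others, and both lactose arrays lay just below the glycerol arrays. In both genes the widest difference between replicates exceeded the range of 0.053 between the means.

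At the other end of the ribosomal members stood rpl44, rps26 and rpl35. Rpl44 gave 14.32 and 14.11 on lactose, 14.60 and 14.77 on glucose, and 14.74 and 14.68 on glycerol, a range of 0.49 just under the limit. Rps26 gave 13.91 and 13.90 on lactose, 14.27 and 14.26 on glucose, and 14.38 and 14.36 on glycerol, with replicates that lay within 0.02 of each other. Rpl35 gave 14.60 and 14.57 on lactose, 14.84 and 15.11 on glucose, and 14.92 and 14.99 on glycerol. In these 3 genes both lactose arrays were below the other 4. This was so for 9 of the 14 ribosomal members (33.1% of all features, and 568 of the 2912 steady features outside the set). The lactose mean was the lowest of the 3 in all 14 (43.24% of all features). After further quantile normalization of the 6 arrays these counts were 6 and 8 of the 14, beside 33.3% and 42.74% of all features. Further ribosomal members, rps15, rpl28, rpl11, rps27, rpl1, rps30, rps21 and rpl39, had ranges between 0.081 and 0.34.

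The 28 ribosomal protein genes outside the set show what the rule separated. Another 15 met the range limit but were dimmer, 4 were bright enough but over the limit, and 9 were neither. The 4 bright genes were rpl5, rps9, rpl17 and rpl40, with ranges of 0.60, 0.71, 0.68 and 0.88. Rpl40 gave 13.60 and 13.56 on lactose, 14.35 and 14.51 on glucose, and 14.46 and 14.45 on glycerol. Each of the 4 was lower on lactose than on either other carbon source, the same order as in the ribosomal members. Over all 42 genes, 41 were lower on lactose than on glucose and all 42 lower than on glycerol (36 and 37 after further quantile normalization), with median differences of -0.38 and -0.35, beside medians of -0.06 and -0.05 over all features. In limma at an adjusted p under 0.05, 24 of the 42 were lower on lactose than on glucose and 19 lower than on glycerol, and 1 was lower on glucose than on glycerol, where 33.9%, 31.5% and 20.3% of all features were lower. Higher calls numbered 0 in all 3 comparisons, at an unadjusted p under 0.05 too, where 29%, 28.3% and 22.4% of all features were higher at an adjusted p under 0.05. After that normalization 13 of the 42 were lower than on glucose and 12 lower than on glycerol, where 33.4% and 31.4% of all features were lower. These lower counts were close to the share of the whole array. Higher calls on lactose were still 0 in both comparisons, where 29.2% and 28.5% of all features were higher. The medians were then -0.26 and -0.22, beside -0.05 and -0.04 over all features. The dimmest gene of the list was rla0, for the acidic ribosomal protein P0, with a mean of 6.95 and a range of 1.39.

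**Figure D3:**
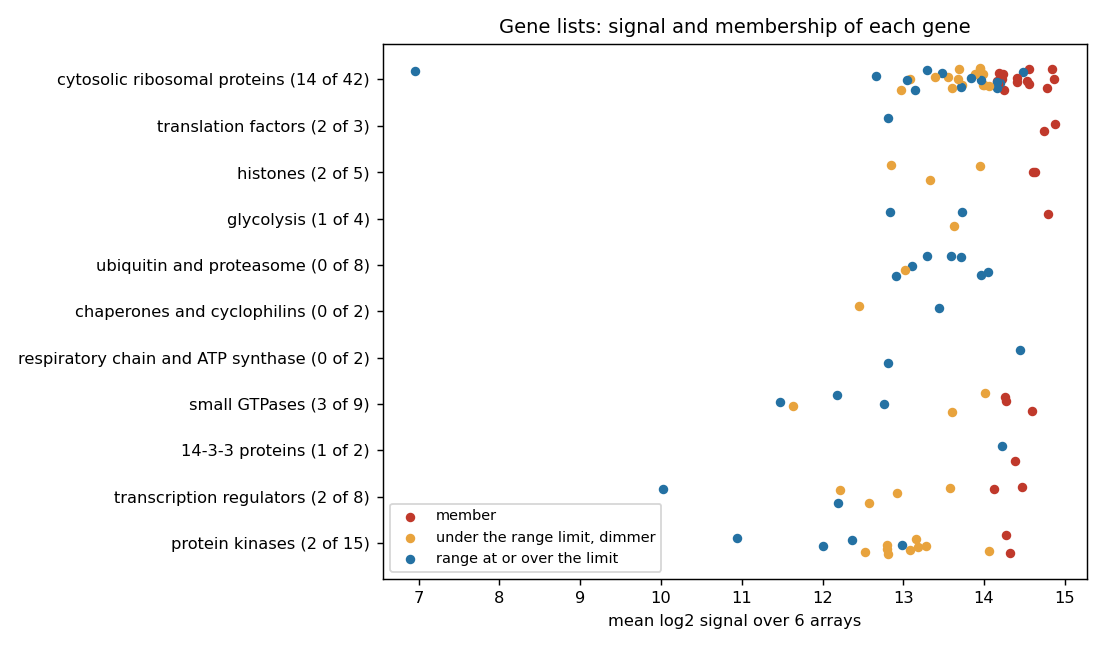
Mean log2 signal over 6 arrays of each gene in 11 lists made from RefSeq symbols, with the number of members of the list's genes in brackets and vertical scatter only to separate points. Ribosomal protein genes crowd between 13 and 15, with members at the right edge, and the proteasome, chaperone and ATP synthase lists hold 0 members.

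Both histone genes in the set were nearly level in their means. The histone H2A gene hh2a gave 14.62 and 14.56 on lactose, 14.62 and 14.68 on glucose, and 14.69 and 14.61 on glycerol, and its span over 6 arrays, 0.12, was the narrowest of all members. The histone H4 gene hh4.1 gave 14.76 and 14.38 on lactose, 14.54 and 14.69 on glucose, and 14.71 and 14.57 on glycerol, so its means lay within 0.066 although its lactose arrays differed by 0.38. All 5 histone genes with a symbol were under the range limit, and hh2b, hh3 and hh4.2 missed the set only by their dimmer means of 13.95, 13.33 and 12.85.

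Central carbon metabolism was represented by gpd1, for glyceraldehyde-3-phosphate dehydrogenase of glycolysis, which gave 14.72 and 14.42 on lactose, 14.85 and 14.88 on glucose, and 14.99 and 14.86 on glycerol. It was 1 of 4 glycolysis genes with a symbol. Eno1, for enolase, was dimmer and ranged over 1.21, with 13.03 and 13.04 on lactose, against 13.90 and 13.91 on glucose and 14.26 and 14.23 on glycerol. The hexokinase gene hxk1 was steady at a mean of 13.63, and the phosphoglycerate kinase gene pgk1 ranged over 0.54 at 12.84.

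The list of small GTPases, molecular switches of the Ras superfamily, supplied 3 members out of its 9 genes. Rho1, which in yeast controls synthesis of the cell wall, gave 14.61 and 14.55 on lactose, 14.50 and 14.63 on glucose, and 14.70 and 14.58 on glycerol, so its arrays overlapped across all 3 carbon sources. Cdc42, which sets cell polarity, gave 14.08 and 14.17 on lactose, 14.15 and 14.42 on glucose, and 14.42 and 14.41 on glycerol. Ypt1, a Rab GTPase of vesicle transport, gave 14.18 and 14.26 on lactose, 13.97 and 14.34 on glucose, and 14.39 and 14.44 on glycerol, with a difference of 0.38 between its 2 glucose arrays. Rac1, ras1 and rsr1 were also under the range limit at dimmer means.

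Of the 14-3-3 proteins, adaptors that bind phosphorylated partners, ftt2 was a member and ftt1 was not. Ftt2 gave 14.33 and 14.44 on lactose, 14.24 and 14.39 on glucose, and 14.42 and 14.47 on glycerol, so that lactose overlapped with both other carbon sources and glucose lay below glycerol. Ftt1 was similarly bright but gave 13.96 and 13.80 on lactose, against 14.24 and 14.43 on glucose and 14.52 and 14.36 on glycerol, a range of 0.56.

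Signalling and regulatory genes were fewer. Among 15 protein kinase genes, kc2a and the glycogen synthase kinase gene gsk3 were members, with ranges of 0.140 and 0.135. A further 9 kinase genes were steady but dimmer. Gsk3 gave 14.40 and 14.30 on lactose, 14.19 and 14.33 on glucose, and 14.11 and 14.32 on glycerol. Among 8 transcription regulator genes, ste12 and cre1 were members. Cre1, the carbon catabolite repressor that acts at cellulase genes when glucose is present, gave 14.22 and 14.35 on lactose, 13.93 and 13.97 on glucose, and 14.26 and 14.02 on glycerol. Its glucose arrays were the lowest 2 of the 6, and its range was 0.34. Ste12, whose yeast counterpart acts in mating and filamentous growth, gave 14.52 and 14.55 on lactose, 14.72 and 14.48 on glucose, and 14.21 and 14.37 on glycerol. The regulator xyr1 from the same list ranged over 4.82.

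Some named members stood outside the lists. Thi4, which makes the thiazole part of thiamine, was highest on lactose, with 14.60 and 14.79 there, against 14.57 and 14.54 on glucose and 14.53 and 14.30 on glycerol. Hex1, whose protein forms the Woronin bodies that plug septal pores after injury, gave 14.41 and 14.15 on lactose, 14.40 and 14.51 on glucose, and 14.75 on both glycerol arrays. Its glycerol arrays stood above the other 4. Nmt1 had the narrowest range of the set on the deposited values, 0.018 between its means (0.16 after further quantile normalization and 0.12 without glucose replicate 1, where other members were narrower), with 14.91 and 14.83 on lactose, 14.72 and 14.99 on glucose, and 14.84 and 14.90 on glycerol, while its glucose arrays differed by 0.27. Gbg1 gave 14.48 and 14.35 on lactose, 14.25 and 14.18 on glucose, and 14.18 and 13.98 on glycerol. Ran1 gave 14.15 and 13.97 on lactose, 14.28 and 14.49 on glucose, and 14.31 and 14.35 on glycerol.

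Genes in use as references were not all in the set. The gene that the study calls tef1 and used in its quantitative PCR is Trire2:123902, a different feature from tef1a. It gave 13.66 and 13.64 on lactose, 13.90 and 13.57 on glucose, and 13.62 and 13.38 on glycerol. With a mean of 13.63 and a range of 0.23 it ranked 222 among the steady features and was not a member. In limma its differences were -0.08 ± 0.15 for lactose against glucose (adjusted p = 0.662) and 0.15 ± 0.15 for lactose against glycerol (adjusted p = 0.405; SE of the fit). The GTPase gene sar1, whose product starts the budding of vesicles from the endoplasmic reticulum and which is a common reference in work on this fungus, gave 11.89 and 11.97 on lactose, against 13.17 and 13.22 on glucose and 13.17 and 13.14 on glycerol. It was lower on lactose by limma, with differences of -1.27 ± 0.11 against glucose (adjusted p = 1.69e-05) and -1.23 ± 0.11 against glycerol (adjusted p = 2.4e-05; SE of the fit).

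Other housekeeping genes that carry a symbol were not in the set, while the functions of the 67 members without one are unknown here. None of the 8 ubiquitin and proteasome genes with a symbol was a member, and only skp1 was under the range limit. In limma 7 of them were lower on lactose than on glucose and 6 lower than on glycerol, where 33.9% and 31.5% of all features were lower, with medians of -0.78 and -0.74, beside -0.06 and -0.05 over all features. The widest range was that of psa5, a proteasome subunit gene, with 12.21 and 12.08 on lactose, against 13.76 and 13.79 on glucose and 14.09 and 13.81 on glycerol. The chaperone genes bip1 and pdi1 and the ATP synthase genes atp1 and atp2 were no members either. Atp1 was bright enough, with 14.16 and 14.14 on lactose, against 14.70 and 14.71 on glucose and 14.46 and 14.48 on glycerol, and its range of 0.56 put it over the limit. No feature carries a symbol for actin or tubulin.

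Within the narrow band that the rule allows, the members had an order of carbon sources. The lactose mean was the lowest of the 3 in 60 members, the glucose mean in 23 and the glycerol mean in 17, beside 43.24%, 28.72% and 28.04% of all features. The highest mean was that of glucose in 48 members, of glycerol in 35 and of lactose in 17, beside 36.02%, 28.59% and 35.39% of all features. Equally bright features over the range limit, 50 in all, had lactose lowest in 29 (58%) and highest in 10 (20%). Among the steady features outside the set these shares were 42.03% and 30.46%. The members' median difference was -0.13 for lactose against glucose, -0.11 for lactose against glycerol and 0.03 for glucose against glycerol. Over all features these were -0.06, -0.05 and 0.03. Both lactose arrays were below the other 4 in 39 members (33.1% of all features) and above them in 10 (27.8% of all features). Among the 2912 steady features outside the set these counts were 568 and 377. Among the 50 equally bright features over the range limit they were 29 and 8. After further quantile normalization the members' counts were 26 (33.3% of all features) and 19 (28.69%). The 10 on the deposited values included thi4, gbg1, Trire2:50039 and Trire2:79166.

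**Figure D4:**
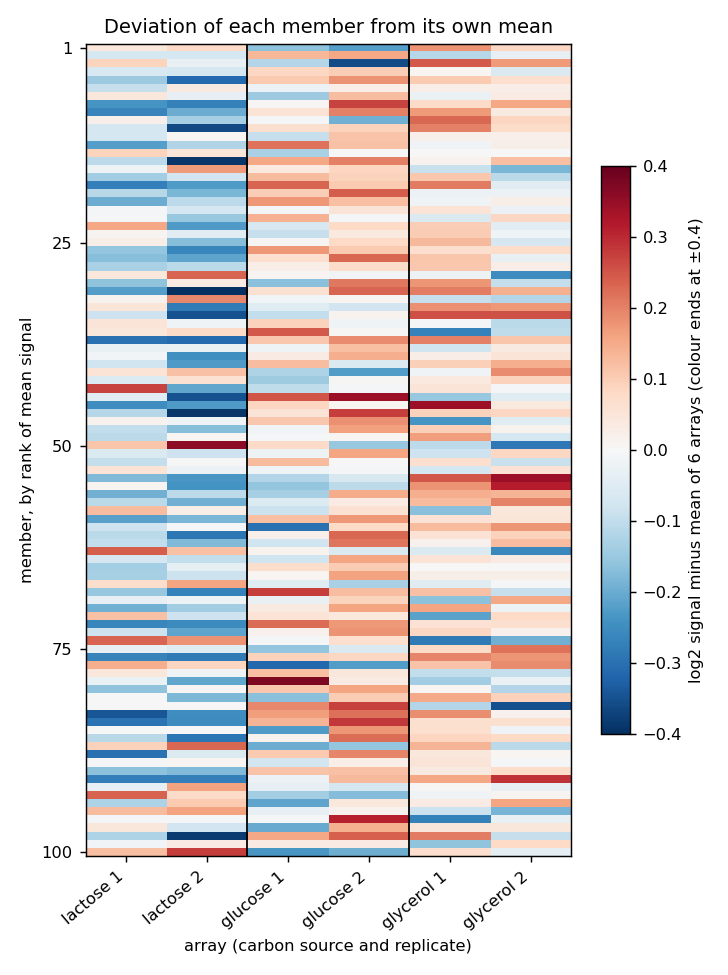
Deviation of each member's log2 signal from its own mean over 6 arrays, 1 row per member from the brightest at the top, with columns for lactose, glucose and glycerol and 2 arrays each. Blue, below the mean, is more frequent in the lactose columns. The lactose mean was the lowest of the 3 in 60 of 100 members, beside 43.24% of all features. After further quantile normalization it was the lowest in 42, beside 42.74% of all features.

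As the rule used the same differences, the calls for members only describe them. At an adjusted p under 0.05 in limma, lactose exceeded glucose in 4 members and was below it in 24, where 29% and 33.9% of all features passed. Against glycerol 3 were higher and 16 lower on lactose, where 28.3% and 31.5% of all features passed. For glucose against glycerol 2 were higher and 5 lower, where 22.4% and 20.3% of all features passed. Called members differed by 0.29 to 0.50 in size, since the limit leaves no room for more, and 60 members passed in none of the 3 comparisons, as did 24% of all features. Among those called lower on lactose than on both other carbon sources were tef1a, cpc2, rpl35, rpl44 and rps26. After further quantile normalization tef1a, cpc2 and rpl35 passed in neither comparison and rps26 only against glycerol, while rpl44 passed in both. Cre1 was among the 4 called higher than on glucose, before and after that normalization. The 7 calls between glucose and glycerol were Trire2:108284 and Trire2:123614, higher on glucose, and Trire2:53947, Trire2:22532, Trire2:77579, Trire2:67420 and Trire2:70840, lower on glucose, of which the last did not pass after further quantile normalization.

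The order of carbon sources depended on how the upper end of the arrays was scaled. Although their medians were alike, the lactose arrays had less signal at the top. The 98th percentile was 14.10 and 14.07 on lactose, against 14.15 and 14.18 on glucose and 14.19 and 14.15 on glycerol, and the 95th percentile was 13.58 and 13.55 on lactose, against 13.67 on both glucose arrays and 13.70 on both glycerol arrays. After further quantile normalization, which makes these percentiles equal, lactose was the lowest in 42 members and the highest in 39. Over all features these shares were 42.74% and 36.46%, close to those of the members. The median differences of the members were then -0.02 against glucose and 0.00 against glycerol. Against glucose 6 members were called higher and 6 lower, where 29.2% and 33.4% of all features passed. Against glycerol 8 were called higher and 6 lower, where 28.5% and 31.4% of all features passed. Of the calls on the deposited values, 10 against glucose and 9 against glycerol were shared with these. With each array centred on its median instead, lactose was the lowest in 61 members (44.08% of all features). All members lie among the 150 brightest features, so quantile normalization brings their median differences close to 0 largely by construction. These counts therefore cannot tell which scaling is right, and the cause of the lower upper percentiles on lactose was not tested.

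**Figure D5:**
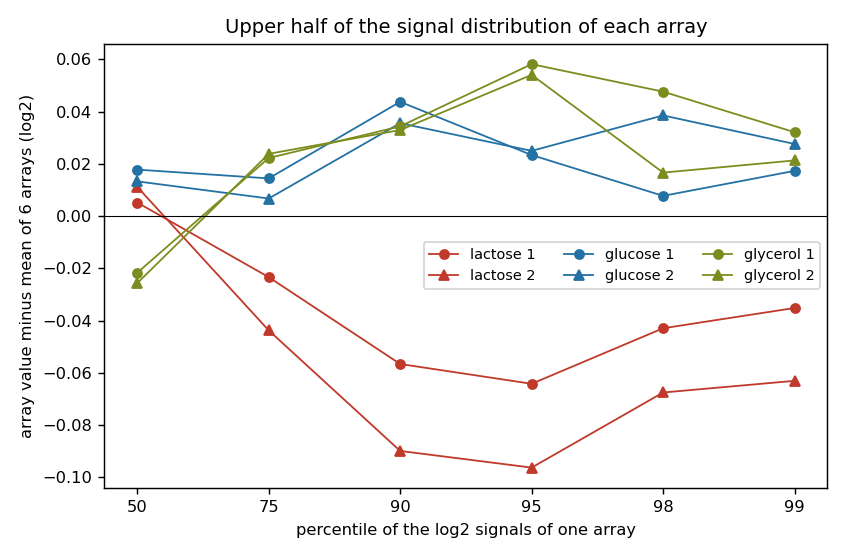
Percentiles from 50 to 99 of the log2 signals of each array, minus the mean of the 6 arrays at that percentile, with lactose in red, glucose in blue and glycerol in green. Both lactose arrays lie below the other 4 from the 75th percentile upwards, where the 95th percentile is 13.58 and 13.55 on lactose and 13.67 to 13.70 on the others.

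Under that further normalization, 11 of the 14 ribosomal members were lower on lactose than on glucose and 9 lower than on glycerol, with medians of -0.11 and -0.10 (14 and 14 as deposited, with medians of -0.21 and -0.20). Of the 86 other members, 43 were lower than on glucose and 40 lower than on glycerol, with medians of 0.01 and 0.01 (55 and 60 as deposited, with medians of -0.11 and -0.10). The difference between the 2 sets of members was not tested.

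Members and non-members met closely at both limits. The widest ranges in the set were those of Trire2:77579 (0.49993), Trire2:63744 (0.496), rpl44 (0.493), Trire2:108284 (0.493) and Trire2:80922 (0.488). Trire2:77579 gave 14.10 and 14.05 on lactose, 14.16 and 14.22 on glucose, and 14.53 and 14.62 on glycerol. The nearest bright features outside were Trire2:41895 (0.504), Trire2:122036 (0.509) and Trire2:21658 (0.517). Trire2:122036 gave 14.56 and 14.42 on lactose, against 15.03 and 14.97 on glucose and 14.92 and 14.96 on glycerol, and was brighter than all but 8 members. By brightness the last members were Trire2:21609 (14.09), Trire2:104878 (14.08) and Trire2:80073 (14.0737), and the next steady features were Trire2:120044 (14.0733), Trire2:62721 (14.07) and Trire2:4878 (14.07). The brightest feature left out was Trire2:61593, the fourth brightest of all, with 14.87 and 14.55 on lactose, against 15.36 and 15.74 on glucose and 15.42 and 15.84 on glycerol.

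The median difference between both arrays of a carbon source was 0.088 for lactose, 0.099 for glucose and 0.089 for glycerol in the members, beside 0.12, 0.13 and 0.17 over all features. The members' median range of 0.27 was thus wider than the usual difference between replicates. In the flattest members it was not. Trire2:4009, with a range of 0.026, gave 14.36 and 14.28 on lactose, 14.29 and 14.30 on glucose, and 14.24 and 14.36 on glycerol. Trire2:80498 and Trire2:77000 had ranges of 0.045 and 0.051, and the glucose arrays of Trire2:77000 differed by 0.40. The widest difference between replicates was that of Trire2:107011, with 14.65 and 14.17 on lactose, 14.28 and 14.37 on glucose, and 14.43 and 14.37 on glycerol. Trire2:120020 differed by 0.38 between its glucose arrays.

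Identical values recurred in some members. The same value to the last deposited digit stood on at least 2 arrays in 21 members (21%), beside 14.17% of all features and 28.23% of the steady features outside the set. Trire2:79014 gave 14.74 on 3 arrays, glucose 2 and both glycerol arrays, and Trire2:104878 gave 14.11 on lactose 2 and both glucose arrays. In the 10 groups by signal the share was 16.1% in the brightest and 30.78% in the dimmest.

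The genes of the members were shorter at the median than those of the array. Their span in the QM6a annotation, introns included, had a median of 1238 bases, against 1503 over the 9094 features with a locus and 1320 over the 47 equally bright ones with a wider range. The shortest, at 288 bases, was the brightest member, Trire2:70840, and the longest, at 3657 bases, was Trire2:78757. In the order of genes on the assembly the members Trire2:53947 and Trire2:73678 were neighbours.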

How the data were processed

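The authors deposited log2 values, 1 per feature and array, which RMA (no version stated) had summarised from several 60-mer probes. How background and arrays were corrected beforehand is not given in the sources used here. Deposited means, folds and p-values per gene were not used, and 0 columns of values per array were left unused. With 2 arrays per carbon source, their number limits the precision.

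Groups came from the sample labels. The rule was applied to the deposited values. The members and gene lists were chosen with earlier results of these data known, and the transcription regulator and protein kinase lists were added after their values were seen. The small GTPase list was planned for genes of secretion and also holds other small GTPases, such as rho1, cdc42 and ras1. Lists were made from the 235 RefSeq symbols of the QM6a assembly. Of the features, 9122 carry a protein number and 9094 matched a locus. All 3 carbon sources were fitted together over all 9126 features in limma 3.58.1 (R 4.3.3) with default eBayes, after a test on simulated data, and p-values were adjusted by Benjamini-Hochberg. The prior standard deviation was 0.135. Named are the 10 brightest members, the 5 widest and narrowest ranges, the 5 widest replicate differences, members with a symbol, features beside each limit and tef1. The values of 1 member with a symbol are not reported here. Other named features, such as further genes of the lists, were chosen after their values were seen. Alternatives were other range limits and rankings, the range over single arrays, further quantile normalization, centring on the median, trend and robust options, separate fits of 2 carbon sources, leaving out dim features, a stricter threshold, the replicate number as a block and leaving out each array. Counts and figures used Python 3.11.15, pandas 2.3.3 and matplotlib 3.10.9.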

Additional observations from a re-analysis of the deposited data

How the results depend on the processing

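Of the 100 members, 57 were also chosen with a range limit of 0.3, and 72 to 96 under the other limits, rankings and scalings and without any single array. The median range lay between 0.23 and 0.29 under both scalings and without any single array. Some named members passed the limit under alternatives added after seeing the data. These were rpl44 (0.525 with centred arrays, up to 0.594 without lactose replicate 1), hex1 (0.503 with centred arrays, 0.604 without lactose replicate 1) and rpl35 (0.523 without glucose replicate 1).

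Counts of called members moved more. With further quantile normalization 12 members were called for lactose against glucose (62.7% of all features). With trend and robust options 31 were called for lactose against glycerol (60.9% of all features) and 11 for glucose against glycerol (43.8%). At an adjusted p under 0.01 the counts were 4 for lactose against glucose (50.4% of all features), 6 for lactose against glycerol (47.5%) and 0 for glucose against glycerol (31.4%). Beside this 0 by limma, 11 members had an unadjusted p under 0.05, and 5 passed 0.01 with trend and robust options. Replicate numbers did not pair the arrays, since same-numbered arrays deviated together only with r = -0.011, -0.139 and 0.075. With the replicate block the counts in the same order were 21, 13 and 4, where 62%, 58.7% and 41.6% of all features passed.

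Leaving out single arrays, with the lone array of a carbon source assumed to vary like the others, gave 6 to 28 calls for lactose against glucose (13 without lactose replicate 1, 6 without lactose replicate 2, 9 without glucose replicate 1, 8 without glucose replicate 2). It gave 5 to 13 calls for lactose against glycerol (12 without lactose replicate 1, 5 without lactose replicate 2, 12 without either glycerol array). It gave 1 to 6 calls for glucose against glycerol (1 without either glucose array, 3 without glycerol replicate 1, 2 without glycerol replicate 2). Over all features these fits called 52.1% to 65.5%, 48.7% to 57.2% and 32.3% to 40.1% in the 3 comparisons. They had fewer arrays, and other causes were not tested.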
